A study of Hipposideros armiger and Mus musculus with 20 samples.

Results

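Intra-abdominal white adipose tissue (aWAT) of the great roundleaf bat, Hipposideros armiger, was compared between animals kept at 10 °C and at 30 °C for 7 days. Each temperature had 2 libraries of total tissue RNA, 1 from a female and 1 from a male, called the cold female, cold male, warm female and warm male libraries here. Members were all genes with at least 1 FPKM (sequenced fragments divided by transcript length and by library size) in 2 of these 4 libraries, which gave 10340 of the 14871 genes in the deposited table. The same study held the subcutaneous white fat (sWAT) and interscapular brown fat (iBAT) of bats, and both of those depots of ICR mice, under the same 2 temperatures with the same 2 libraries per group. The labels call the bats wild type, give no age, and name no allele or agent besides temperature in any group. They do not say whether depots came from the same animal, whether animals were pooled, or that the female and male were more than 1 animal each, so p-values measure only the spread between these libraries.

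White fat stores triglyceride in cells with 1 large droplet and few mitochondria, while brown fat burns fatty acids in many mitochondria whose uncoupling protein, UCP1, lets the proton gradient run down as heat. Noradrenaline released by sympathetic nerves in the cold drives lipolysis and, through cAMP and PGC-1α, the transcription of thermogenic and mitochondrial genes. White depots can gain cells with these features, which is called browning. In mice it is usually strongest in subcutaneous fat, and bats also use brown fat to rewarm from torpor.

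The libraries were similar in depth. Ratios of low FPKM values to those of the warm female matched ratios of whole numbers up to 5 in 46.4% to 67.8% of low genes. This was at the best-matching depth, and the median match at other depths was 1.95% to 2.77%. By this measure the other 3 libraries had 0.932 to 0.961 of the depth of the warm female. Over the genes tested, the 2 warm libraries correlated at 0.961 and the 2 cold libraries at 0.966, against 0.872 to 0.941 between temperatures. Fat genes were abundant in all 4, with Adipoq, which encodes adiponectin, at 827 and 1241 FPKM in warm and 392 and 579 in cold tissue (female first throughout). Wt1, a marker of the mesothelium and of visceral fat precursors, was at 7.43 and 8.54 (warm) and 3.51 and 4.93 (cold) FPKM. The skeletal muscle creatine kinase Ckm was at or near 0, with 0.129 and 0 (warm) and 0 and 0.0345 (cold) FPKM. The warm female library stood apart in Cxcl10, an interferon-induced chemokine, which was at 72.4 FPKM there and at 0.501 to 1.40 in the others, and in C3, the central complement component, at 74.4 against 0.554 to 2.26. The class II gene H2-Eb1 was at 147 FPKM there against 19.6 to 39.7, and the interferon list summed to 301 against 103 to 154. These observations were made after the values were seen. Since some genes that every cell uses were also low, such as the chaperone Hspa5 at 0.695 and 0.639 (warm) and 1.10 and 1.19 (cold) FPKM, a value near 0 was not read as absence of the transcript.

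Cold changed the expression of many genes in aWAT. Of 11025 genes tested over the 12 bat libraries, 918 (8.33%) were higher and 716 (6.49%) were lower in the cold at a limma adjusted p under 0.05, and 906 and 712 of these were members. Of the members, 9993 passed the FPKM minimum in both temperatures, 125 in the cold libraries only and 222 in the warm libraries only, and 60 of the 906 higher and 53 of the 712 lower members were of these last kinds. Among the 846 higher members that passed in both temperatures, 674 (79.7%) changed at least 2-fold, 167 at least 4-fold and 33 at least 8-fold, while of the 659 lower ones 194 (29.4%) changed at least 2-fold and 11 at least 4-fold. All changes below are log2 differences of FPKM + 1, cold minus warm, ± SE with 2 libraries per temperature, set relative to the median gene, which lay at -0.14. The split between directions depended on the scale: 56.2% of the called genes were higher with FPKM as deposited, 68.1% after median-ratio scaling and 39.2% when the 10 highest genes were taken out of the library totals. Without the warm female library 349 genes were higher and 108 lower, and without the cold female library 333 and 90. No called gene changed direction under any alternative.

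**Figure D1:**
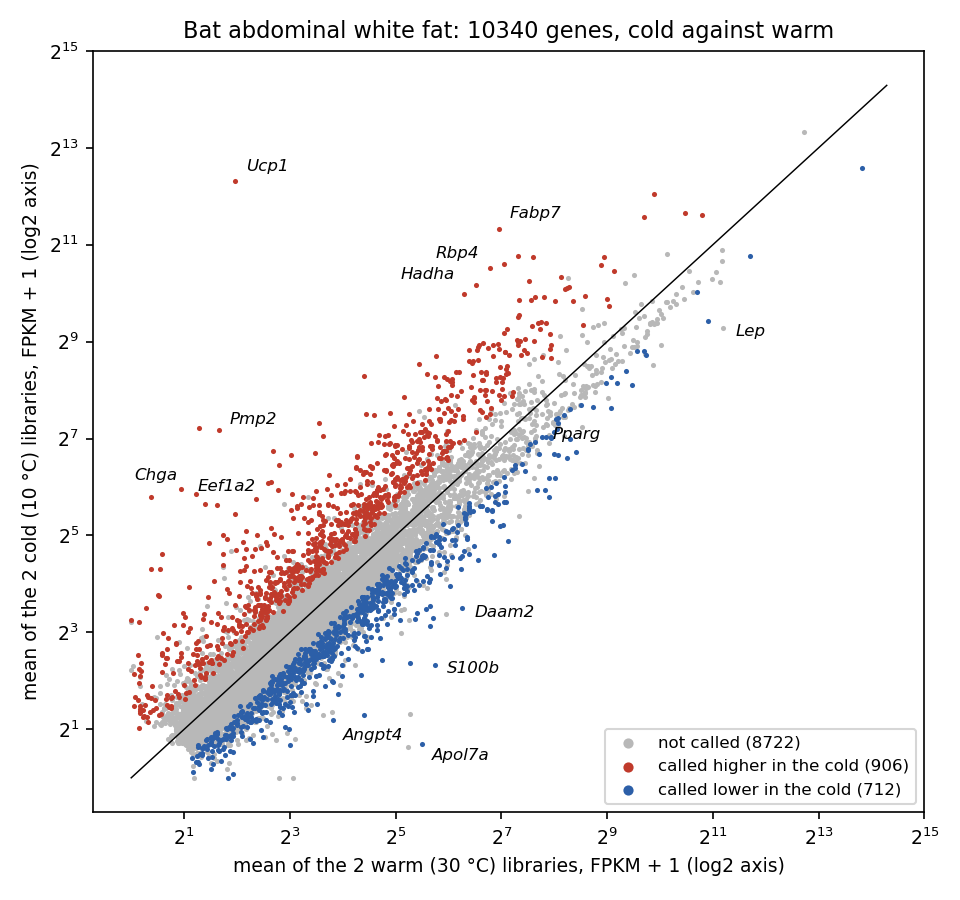
Mean FPKM of each member gene in the cold (vertical) against the warm (horizontal), both as FPKM + 1 on log2 axes, with genes called higher, called lower or not called in separate colours and the line of equal levels drawn. Ucp1 lies farthest above the diagonal, and more of the higher than of the lower genes lie far from it.

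Ucp1 had the largest change of any gene. Its level was 3.18 and 2.67 FPKM in the warm libraries and 7184 and 2939 in the cold ones. Every cold value was far above every warm value, with a cold mean 1732 times the warm mean, a log2 change of 10.33 ± 0.36 and a limma adjusted p of 9.98e-07. The call held without each library in turn, with log2 changes of 9.59 to 11.08.

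Of 30 tested genes on a list of brown fat and thermogenic genes, 15 were higher and 2 were lower, with a median log2 change of 1.44, where the median gene of all tested lies at 0 by construction. Without the warm female, the warm male or the cold female library 10 were higher, and without the cold male 12. The summed FPKM of the list was 1290.4 and 1771 in the warm and 11283 and 6847 in the cold, and most of that rise was Ucp1. Cox7a1, the cytochrome oxidase subunit of muscle and brown fat, rose from 171 and 257 to 775 and 570.0 FPKM (log2 change 1.80 ± 0.25, limma adjusted p 0.00323). Cpt1b, the muscle and brown fat form of the enzyme that commits fatty acids to mitochondrial oxidation, rose from 16.7 and 20.1 to 121 and 75.4 FPKM (log2 change 2.46 ± 0.24). Gk, the glycerol kinase that lets fat cells reuse glycerol, was at 0.427 and 0.446 FPKM in warm and 18.3 and 6.65 in cold tissue (log2 change 3.22 ± 0.34). For all 3 genes the groups did not overlap, and the calls held without each library in turn. Of them, Gk passed the FPKM minimum in the cold libraries only. Letmd1, a mitochondrial protein needed for brown fat thermogenesis, also rose in every such fit (log2 change 2.92 ± 0.30).

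Other brown fat genes were called with all libraries but not with every library left out. Cidea, a lipid droplet protein used as a brown and beige fat marker, was already at 246 and 741 FPKM in warm tissue and reached 1587 and 1846 in the cold (log2 change 2.14 ± 0.47, limma adjusted p 0.0211). Ppargc1a, which encodes PGC-1α, was at 5.35 and 5.23 (warm) and 21.8 and 47.9 (cold) FPKM (log2 change 2.55 ± 0.57, adjusted p 0.0216). Groups did not overlap for either gene, yet adjusted p reached 0.125 for Cidea without the cold female, the cold male or the warm female, and 0.105 for Ppargc1a without the cold male or a warm library. Pdk4, which spares glucose by blocking pyruvate dehydrogenase, went from 139 and 60.6 to 577 and 426 FPKM (log2 change 2.56 ± 0.55, adjusted p 0.0176, up to 0.132 without the cold female or the warm male). Ppargc1b, the related coactivator, was at 7.37 and 3.75 (warm) and 17.4 and 13.3 (cold) FPKM, and its call was lost without any of the 4 libraries (adjusted p 0.0404, up to 0.229).

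Several genes that usually mark browning did not pass the test. Dio2, which makes active thyroid hormone in brown fat, was at 0.250 and 0.218 FPKM in warm and 0.436 and 4.62 in cold tissue, with the high value in the cold male (limma adjusted p 0.13). Prdm16, the brown fat cofactor, was at 0 and 0.821 (warm) and 4.31 and 0.300 (cold) FPKM (adjusted p 0.4), and neither gene reached the member rule. Zic1, a marker of interscapular brown fat precursors, was at or near 0 in all 4 libraries. Ebf2, a brown fat lineage factor, was at 15.5 and 22.8 FPKM in warm and 15.5 and 21.6 in cold tissue (adjusted p 0.934). None of the 8 tested beige cell markers was higher and 1, Sp100, was lower, against 8.33% and 6.49% of all genes tested. These are too few genes to read the counts as a result. Of the 8, 4 had a positive change, the largest at 2.21, and the median was -0.08. Their summed FPKM was 96.6 and 101 in the warm and 281 and 177 in the cold. Sp100 had a log2 change of -0.96 ± 0.23 (limma adjusted p 0.0126), a call lost without the cold female or the warm female. On the brown list itself S100b and Ntrk3 were lower. S100b, a calcium-binding protein that brown fat cells secrete to attract nerves and that Schwann cells also make, fell from 54.8 and 50.2 to 1.72 and 6.39 FPKM (log2 change -3.44 ± 0.49, adjusted p 0.00205). Ntrk3, the neurotrophin-3 receptor, was at 8.65 and 5.32 (warm) and 0.327 and 0.874 (cold) FPKM (log2 change -2.17 ± 0.48, adjusted p 0.0123, up to 0.106 without the cold female or the warm female).

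**Figure D2:**
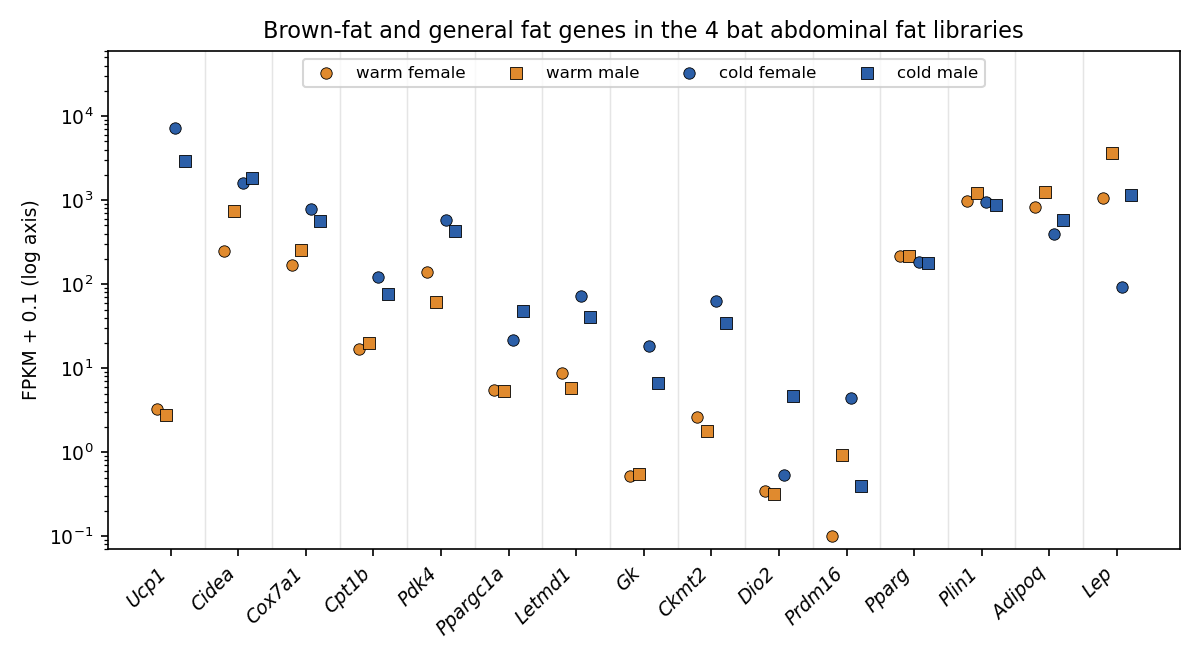
FPKM + 0.1 on a log axis of 15 thermogenic and general fat genes in the 4 aWAT libraries, 1 point per library, with colour for temperature and shape for sex. Ucp1 separates the temperatures most, Pparg lies between 178 and 219 FPKM in all 4, and the warm and cold points of Lep and Prdm16 overlap.

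Genes of white and general fat cells were called in both directions. Of 16 general fat cell genes 2 were higher and 2 lower (12.5% each, against 8.33% and 6.49% of all genes tested), namely Pnpla2 and Rbp4 higher and Cebpa and Lpl lower. Without the cold female 0 were called, without the warm female 0 were higher and 1 lower, without the cold male 1 and 1, and without the warm male 2 and 0. Pparg, the master regulator of fat cells, stayed between 178 and 219 FPKM (limma adjusted p 0.312). Plin1, the coat protein of large droplets, was at 990.1 and 1226 (warm) and 938 and 868 (cold) FPKM (adjusted p 0.42). Of 14 white fat genes none was higher and 2 were lower, with a median log2 change of -0.67 (0 lower without the cold female, 1 without the warm female and 4 without the cold male). Lep, which encodes leptin, was at 1062 and 3631 FPKM in warm and 93.6 and 1151 in cold tissue, and the groups overlapped (log2 change -2.44 ± 1.19, adjusted p 0.167). Adipoq was lower in both cold libraries but missed the threshold (log2 change -0.95 ± 0.35, adjusted p 0.0628). Cebpa, a regulator of fat cell differentiation, was at 226 and 307 (warm) and 106 and 93.6 (cold) FPKM (log2 change -1.26 ± 0.28, adjusted p 0.0104, up to 0.0586 without the cold female or the warm male). Rbp4, the retinol carrier, was at 29.1 and 189.7 (warm) and 1948 and 980.5 (cold) FPKM, with a wide error and a call lost without 3 of the 4 libraries (log2 change 4.33 ± 1.11, adjusted p 0.0335, up to 0.229 without the cold female, the cold male or the warm female).

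Most mitochondrial genes were higher. Over the union of 10 lists of mitochondrial genes, 126 of 187 tested genes (67.4%) were higher and 1 was lower, with a median log2 change of 1.31, beside 7.31% higher and a median of -0.01 over the other 10838 genes. Without the cold female library 73 of the 187 were higher and without the warm female 77, while without the warm male or the cold male 121 and 128 were. Under 3 other scalings 117 to 131 were higher.

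Among the nuclear genes of the respiratory chain and ATP synthase, 38 of 54 were higher. Complex I, which takes electrons from NADH, had 21 of 23 genes higher with a median log2 change of 1.52 (14 without the warm female or the cold female). Its subunit Ndufs3 rose from 70.0 and 120.0 to 603 and 377 FPKM (log2 change 2.50 ± 0.28, limma adjusted p 0.00108). Complex II had 3 of 4 genes higher, among them Sdha, the flavoprotein subunit of succinate dehydrogenase, at 117 and 200.2 (warm) and 927 and 532 (cold) FPKM (log2 change 2.32 ± 0.30). All 6 genes of complex III and cytochrome c were higher, also without any 1 library. Cycs, which encodes cytochrome c, rose from 19.1 and 34.5 to 167 and 97.4 FPKM (log2 change 2.41 ± 0.33). Ndufs3, Sdha and Cycs had no overlap between temperatures and were called without each library in turn.

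Complex IV and the ATP synthase had smaller shares called than complex I. Of 9 cytochrome oxidase genes 3 were higher and 1 was lower, with a median log2 change of 0.79, and 1 was higher without the warm female or the cold female. Cox7a1 was the largest of the 3, and the lower gene was Cox6b2, a testis form of a subunit, at 7.61 and 5.11 (warm) and 2.12 and 2.94 (cold) FPKM (log2 change -0.91 ± 0.22, limma adjusted p 0.0134, up to 0.112 without the cold female or the warm female). Of 12 ATP synthase genes 5 were higher, with a median of 0.88. Atp5b, the catalytic beta subunit, rose from 689.5 and 1193 to 4999 and 3450.4 FPKM (log2 change 2.33 ± 0.29, adjusted p 0.00172), a call that held without each library in turn.

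The citric acid cycle and pyruvate dehydrogenase had 18 of 21 genes higher, with a median log2 change of 2.11 and 15 to 19 higher without each library in turn. Dlst, from the complex that oxidises oxoglutarate, rose from 63.1 and 103 to 549.5 and 363 FPKM (log2 change 2.59 ± 0.29, limma adjusted p 0.00108), and Sucla2, which makes ATP from succinyl-CoA, from 69.6 and 115 to 545 and 366 (log2 change 2.44 ± 0.27). Cold values were above warm ones for both, and both were called without each library in turn.

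Fatty acid oxidation had 15 of 24 genes higher and a median log2 change of 1.50, with 12 to 16 higher without each library in turn. The trifunctional protein, which carries out the last steps of each round on long chains, led the list. Its subunit Hadha rose from 67.6 and 114 to 1349.7 and 949 FPKM (log2 change 3.81 ± 0.27, limma adjusted p 0.000168), and Hadhb from 124 and 192 to 2172 and 1289 (log2 change 3.57 ± 0.28, adjusted p 0.000237). Etfdh, which passes electrons from fatty acid oxidation to ubiquinone, went from 46.0 and 60.3 to 484 and 351 FPKM (log2 change 3.08 ± 0.24), and the medium-chain dehydrogenase Acadm from 177 and 188 to 1512 and 926 (log2 change 2.83 ± 0.24). The carnitine shuttle rose with them, with log2 changes of 2.94 ± 0.36 for Cpt2 and 2.55 ± 0.28 for Slc25a20. Each of these 6 genes had its lowest cold value above its highest warm value and was called without each library in turn. Genes for ketone bodies and branched-chain amino acids, other fuels of brown fat, had 11 of 19 higher with a median of 1.22, and 6 to 13 without each library in turn (6 without the cold female). Acadsb, a dehydrogenase of branched-chain acyl-CoA, was at 41.6 and 40.6 (warm) and 125 and 122 (cold) FPKM (log2 change 1.70 ± 0.24, adjusted p 0.00368). Peroxisomal genes had 3 of 20 higher (15.0%, against 8.33% of all genes tested), and fewer without the cold female or the warm female.

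Genes that build mitochondria also rose. The mitochondrial ribosome and its translation factors had 32 of 40 genes higher with a median log2 change of 1.14, but 7 without the cold female and 9 without the warm female. Mrps27 rose from 9.69 and 10.8 to 69.3 and 49.2 FPKM (log2 change 2.54 ± 0.21, limma adjusted p 0.000358) and Mrpl12 from 47.2 and 66.5 to 260.2 and 174 (log2 change 2.04 ± 0.26), and both calls held without each library in turn. Import, protease and membrane-shaping genes had 14 of 23 higher (8 without the cold female and 9 without the warm female). Of these Chchd3 and Immt, which hold the cristae junctions together, had log2 changes of 2.43 ± 0.29 and 2.19 ± 0.27, and Timm44, part of the import motor, 2.25 ± 0.19. Inner membrane carriers had 10 of 26 higher (4 without the cold female and 5 without the warm female), led after Slc25a20 by the coenzyme A carrier Slc25a42 at 5.88 and 5.08 (warm) and 33.6 and 29.4 (cold) FPKM (log2 change 2.46 ± 0.18).

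**Figure D3:**
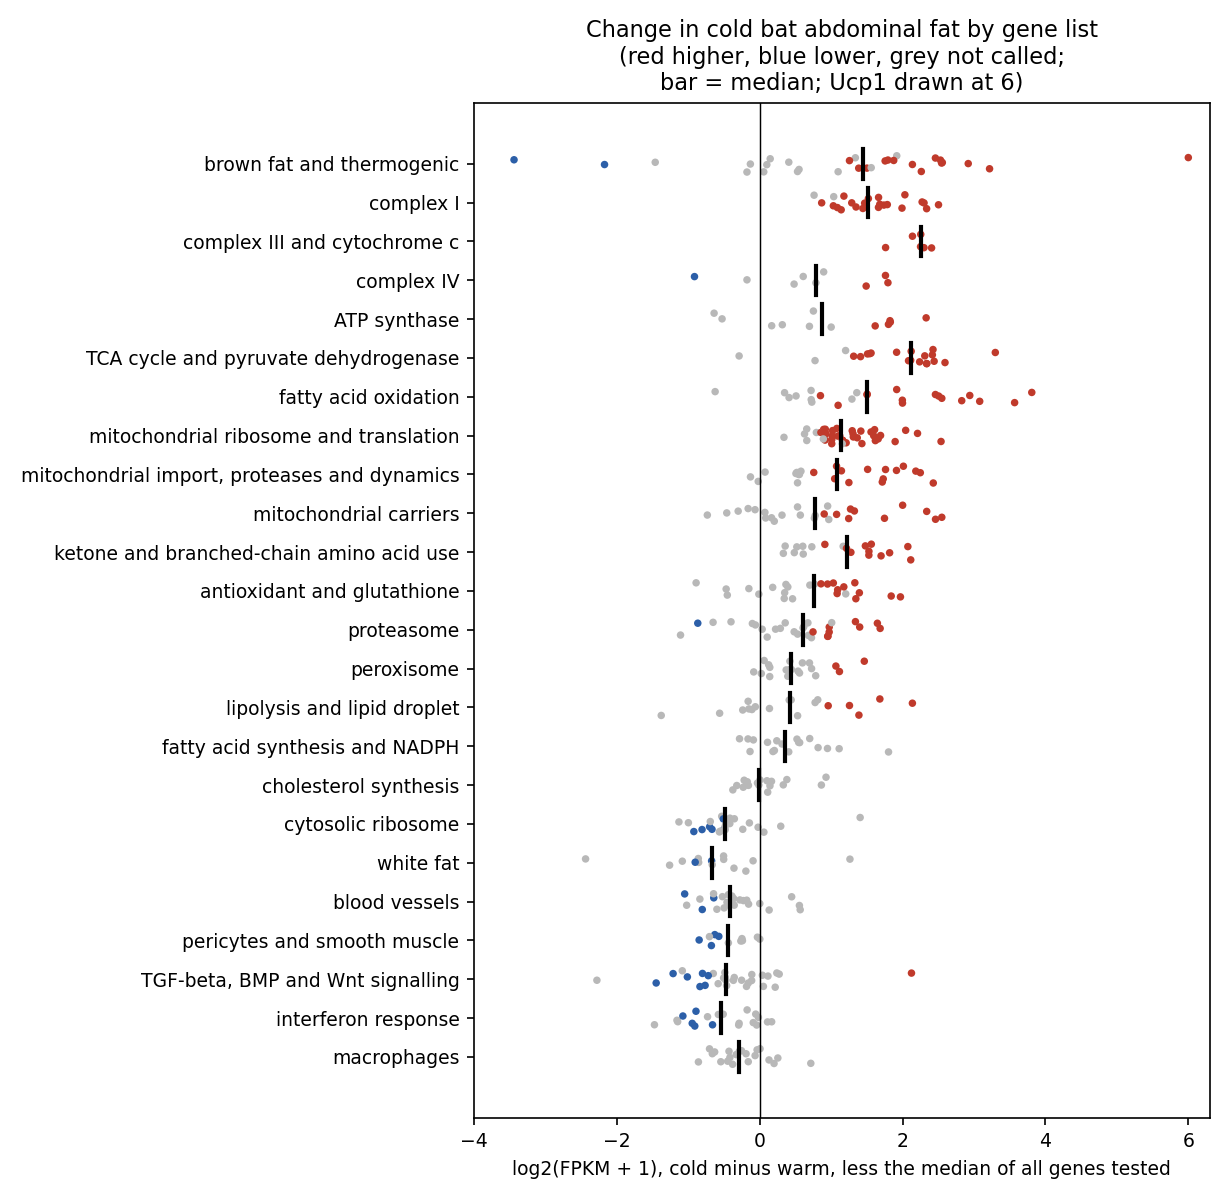
For each gene list, points give the log2 change of FPKM + 1 in aWAT (cold minus warm, relative to the median gene) of its tested genes, with a bar at the list's median and Ucp1 drawn at 6 to fit the axis. Red, blue and grey mark genes called higher, called lower and not called, and the medians run from 2.25 for complex III to -0.67 for white fat.

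Of 37 fat cell transcription factors 3 were higher (8.11%) and 4 lower (10.8%), against 8.33% and 6.49% of all genes tested, with a median log2 change of -0.09, and 1 was higher without the cold female, the warm female or the warm male. Esrra, the orphan receptor ERRα that works with PGC-1α on mitochondrial genes, rose from 46.5 and 46.1 to 168 and 124 FPKM (log2 change 1.76 ± 0.24, limma adjusted p 0.00277) and was called without each library in turn. The retinoid receptor Rxrg was at 153 and 126 (warm) and 372 and 476 (cold) FPKM (log2 change 1.73 ± 0.39, adjusted p 0.0251) and the thyroid receptor Thra at 15.8 and 14.0 (warm) and 42.2 and 24.2 (cold) (log2 change 1.19 ± 0.26, adjusted p 0.0263). Neither of these calls held without the cold female, the warm female or the warm male, nor that of Rxrg without the cold male, and adjusted p reached 0.0948 for Rxrg and 0.184 for Thra. Ppara, the fatty acid receptor, was higher in both cold libraries, at 2.29 and 0.797 (warm) and 6.63 and 8.17 (cold) FPKM, without passing the test (adjusted p 0.0955).

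Adrenergic and cAMP signalling genes had 4 of 24 higher (16.7%) and 1 lower (4.17%), against 8.33% and 6.49% of all genes tested. Fewer were called without the cold female or the warm female. Adra1a, the alpha-1A receptor that raises calcium, rose from 2.52 and 2.16 to 23.6 and 16.1 FPKM (log2 change 2.76 ± 0.28, limma adjusted p 0.000806), and Atf2, a transcription factor that p38 kinase activates on the Ucp1 and Ppargc1a genes, from 6.20 and 7.47 to 21.7 and 27.4 (log2 change 1.84 ± 0.21). Their groups did not overlap and the calls held without each library in turn. Adrb3, the beta-3 receptor, was not called, at 37.5 and 17.8 FPKM in warm and 46.2 and 36.8 in cold tissue (adjusted p 0.494). The kinase subunits Prkaca and Prkar2b had log2 changes of 1.30 ± 0.25 and 1.59 ± 0.36, with adjusted p up to 0.131 and 0.163 without the cold female or the warm female, and Prkar2b was also lost without the cold male.

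Of 18 genes for fatty acid synthesis and NADPH 0 were called in the 12-library limma fit, against 8.33% higher and 6.49% lower over all genes tested. Their median log2 change was 0.36, with 14 positive, so the count does not show a lack of response. Fasn, the fatty acid synthase, was at 30.4 and 219.8 FPKM in warm and 107 and 43.3 in cold tissue, with the highest value in the warm male (adjusted p 0.906). Of 18 cholesterol genes 0 were called, and 1 was higher under median-ratio or quantile scaling. Triglyceride synthesis had 4 of 12 higher and 1 lower (2 and 0 without the cold female), Gk among the higher. Agpat3, an acyltransferase of glycerolipid synthesis, rose from 114 and 93.6 to 286 and 227 FPKM (log2 change 1.43 ± 0.19, adjusted p 0.00284) in every fit with 1 library left out. Pck1, which makes glycerol phosphate from pyruvate in fat, was at 1765 and 1085 (warm) and 3374 and 3107 (cold) FPKM (log2 change 1.36 ± 0.24, adjusted p 0.00985, 0.0764 without the cold female).

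Lipolysis and droplet genes had 5 of 18 higher, but 1 without the warm female or the cold female. Bscl2, which encodes the droplet assembly protein seipin, rose from 37.7 and 47.1 to 139 and 112 FPKM (log2 change 1.68 ± 0.20, limma adjusted p 0.00165). Pnpla2, the first lipase of triglyceride breakdown, was at 1578 and 1959.8 (warm) and 3355 and 2885 (cold) FPKM (log2 change 0.96 ± 0.21, adjusted p 0.0313), and Plin5, which ties droplets to mitochondria, at 50.7 and 72.0 (warm) and 158 and 111 (cold) (log2 change 1.26 ± 0.23, adjusted p 0.013). Without the cold female or the warm female their adjusted p reached 0.203 and 0.111. Fatty acid uptake genes had 1 of 16 higher (6.25%) and 3 lower (18.8%), against 8.33% and 6.49% of all genes tested. Fewer were lower without the warm female or the cold female. Lpl, which frees fatty acids from blood lipoproteins, was at 2988 and 3633 (warm) and 1643 and 1851 (cold) FPKM, and its call was lost without any of the 4 libraries (log2 change -0.78 ± 0.27, adjusted p 0.0463, up to 0.227).

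Glycolysis had 4 of 15 higher (26.7%), Pdk4 among them, and 1 lower (6.67%), against 8.33% and 6.49% of all genes tested. Fewer were higher without the cold female. Ldhb, the heart form of lactate dehydrogenase, rose from 116 and 146 to 1999 and 1121 FPKM (log2 change 3.65 ± 0.45, limma adjusted p 0.00154), and Eno1, enolase, from 83.0 and 109.9 to 389.7 and 274 (log2 change 1.90 ± 0.23). Pfkfb1, which makes and removes an activator of glycolysis, fell from 82.3 and 79.9 to 25.7 and 35.1 FPKM (log2 change -1.27 ± 0.20). These 3 were called without each library in turn and had no overlap between temperatures. Glycogen genes had 4 of 9 higher and 1 lower, and 1 higher without the cold female or the warm female. Gbe1, the branching enzyme, rose from 7.55 and 8.00 to 58.0 and 34.5 FPKM in every such fit (log2 change 2.52 ± 0.36). Pygb, the brain form of glycogen phosphorylase, was at 3.97 and 17.3 (warm) and 235 and 84.9 (cold) FPKM (log2 change 4.03 ± 0.77, adjusted p 0.0104, up to 0.103 without the cold female or the warm female).

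Heat-producing cycles that do not need UCP1 had 5 of 13 genes higher and 1 lower, of which Gk, Pnpla2 and the ADP/ATP carrier Slc25a4 are shared with lists above (3 to 5 higher without each library in turn). Ckmt2, the mitochondrial creatine kinase, rose from 2.50 and 1.68 to 63.3 and 34.3 FPKM (log2 change 4.09 ± 0.62, limma adjusted p 0.00401). Gpd2, the mitochondrial enzyme of the glycerol phosphate shuttle, rose from 2.87 and 3.80 to 27.2 and 29.4 FPKM (log2 change 2.90 ± 0.40, adjusted p 0.00273), while its cytosolic partner Gpd1 was at 542 and 682 (warm) and 468 and 765 (cold) (adjusted p 0.966). Ckb, the creatine kinase of the futile cycle in mouse beige fat, was at 13.3 and 6.17 (warm) and 5.28 and 10.8 (cold) FPKM (adjusted p 0.702), and the calcium pump Atp2a1 was near 0 in all 4 libraries. Ckmt2 and Gpd2 were called without each library in turn.

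The other largest increases were in genes that are not classic markers of brown fat. Pmp2, a fatty acid binding protein first known from myelin, rose from 2.01 and 2.34 to 203 and 85.1 FPKM (log2 change 5.52 ± 0.39, limma adjusted p 0.000168). Eef1a2, the muscle and nerve form of a translation elongation factor, rose from 1.40 and 0.418 to 59.5 and 62.8 FPKM (log2 change 5.21 ± 0.38). Rap1gap, which switches off the small GTPase Rap1, rose from 1.30 and 1.38 to 81.4 and 33.1 FPKM (log2 change 4.64 ± 0.35). All cold values of these genes were far above all of their warm values. Serhl, a serine hydrolase-like protein, Shd, an adaptor protein, the potassium channel Kcnk16, Tm6sf2, a protein of lipid export, and Tcf19 had log2 changes of 4.43 ± 0.38, 4.08 ± 0.33, 4.07 ± 0.45, 3.91 ± 0.67 and 3.89 ± 0.28. The 8 genes of these sentences were called without each library in turn. Chga, the granule protein chromogranin A of neuroendocrine cells, was at 0.290 and 0.299 (warm) and 83.4 and 26.3 (cold) FPKM (log2 change 5.35 ± 0.87, limma adjusted p 0.00495). Chga passed the FPKM minimum in the cold libraries only, and its call was lost without the cold female. Fabp7, the brain form of the same binding protein family as Pmp2, was abundant at 50.2 and 195 (warm) and 1688 and 3454 (cold) FPKM but was called less firmly (log2 change 4.73 ± 0.95, adjusted p 0.0123, up to 0.101 without the cold female, the cold male or the warm female). Since bat fragments were counted on mouse gene identifiers, Pmp2, Fabp7, Eef1a2 and other members of close gene families are named with some doubt.

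Apol7a, of the apolipoprotein L family, had the largest decrease, from 54.9 and 33.2 to 0.204 and 1.06 FPKM (log2 change -4.66 ± 0.34, limma adjusted p 0.000168), and its name is likewise uncertain among its relatives. Next after S100b came Angpt4, a ligand of the TIE2 receptor of vessels, from 25.5 and 14.7 to 0.948 and 1.99 FPKM (log2 change -2.94 ± 0.35), and Prrt4, a membrane protein, from 39.6 and 35.7 to 2.55 and 5.78 (log2 change -2.84 ± 0.32). Daam2, a formin that acts in Wnt signalling, fell from 72.1 and 78.2 to 9.74 and 10.9 FPKM (log2 change -2.62 ± 0.40). Warm and cold values of these 4 genes did not overlap, and the calls held without each library in turn. Afap1l1, Cckbr, Arrdc2, Golga7b and Galnt16 also fell in every such fit, with log2 changes from -2.30 ± 0.34 for Afap1l1 to -2.00 ± 0.32 for Galnt16.

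Over all genes tested 6.49% were lower, and lists of other cells in the depot lay on both sides of that share. Of 24 blood vessel genes 0 were higher and 3 lower (12.5%) with a median log2 change of -0.41 (0 lower without the warm female or the cold female, 7 without the cold male). Of 11 pericyte and smooth muscle genes 4 were lower (36.4%, and 0 genes without the warm female or the cold female). The counts were 1 of 15 fibroblast genes (6.67%), 2 of 39 collagen and matrix genes (5.13%) and 0 of 21 macrophage genes, near or below the share of all genes. Without the cold male these last 3 counts rose, and without the cold female none of them rose. The count of lower genes over all genes tested rose and fell in the same 2 fits. Lamb1, a basement membrane laminin, fell from 95.3 and 65.6 to 25.8 and 33.1 FPKM (log2 change -1.27 ± 0.23, limma adjusted p 0.00428) and Htra1, a secreted protease, from 260.2 and 193 to 45.1 and 75.2 (log2 change -1.79 ± 0.28), both in every fit with 1 library left out. The endothelial gene Tek, the receptor of Angpt4, was at 15.3 and 13.5 (warm) and 5.93 and 8.24 (cold) FPKM (log2 change -0.80 ± 0.20, adjusted p 0.0152, up to 0.121 without the cold female or the warm female). The TGF-beta, BMP and Wnt list had 1 of 30 higher and 7 lower (0 lower without the warm female or the cold female). Its inhibitor Smad7 was at 13.0 and 9.95 (warm) and 3.40 and 4.36 (cold) FPKM (log2 change -1.21 ± 0.26, adjusted p 0.00895, up to 0.0789 without the same libraries).

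Summed FPKM was lower in both cold libraries for vessels, pericytes and fibroblasts, and overlapped between temperatures for macrophages and mesothelium. Blood vessel genes summed to 609 and 518 in the warm and 377 and 441 in the cold, pericyte and smooth muscle genes to 115 and 142 in the warm and 61.9 and 82.6 in the cold, and fibroblast genes to 1414 and 2122 in the warm and 714 and 1253 in the cold. Macrophage genes summed to 601 and 375 in the warm and 226 and 437 in the cold and the mesothelium list to 114 and 174 in the warm and 63.5 and 137 in the cold. The general fat cell list summed to 9701 and 12566 in the warm and 11719.6 and 10796 in the cold, with overlap between temperatures. In bulk tissue, fewer cells of a type and less RNA per cell cannot be told apart, and the part of cell makeup in any change above was not tested. Skeletal muscle genes summed to 33.9 and 34.5 in the warm and 44.0 and 43.4 in the cold. Of 18 tested, 1 was higher (5.56%, against 8.33% of all genes tested), the myosin light chain Myl1. It was at 3.78 and 4.21 (warm) and 21.3 and 15.3 (cold) FPKM (log2 change 2.07 ± 0.39, limma adjusted p 0.0112). That call was lost without the cold female or the warm female.

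Genes of protein and oxidant handling were split. Antioxidant and glutathione genes had 11 of 25 higher (3 without the warm female and 5 without the cold female), and the 2 with the largest changes are mitochondrial and were called without each library in turn. Sod2, the superoxide dismutase of the matrix, rose from 42.1 and 67.0 to 232 and 159 FPKM (log2 change 1.97 ± 0.25, limma adjusted p 0.00213), and Txn2, the mitochondrial thioredoxin, from 30.6 and 28.4 to 116 and 83.1 (log2 change 1.84 ± 0.19). Proteasome genes had 9 of 28 higher and 1 lower (2 higher without the warm female or the cold female), led by the lid protease Psmd14 at 3.70 and 6.02 (warm) and 16.2 and 15.5 (cold) FPKM (log2 change 1.69 ± 0.25) and the core subunit Psma1 (log2 change 1.65 ± 0.20). Psmb10, the immunoproteasome subunit, was at 29.4 and 19.6 (warm) and 11.6 and 11.4 (cold) FPKM (log2 change -0.87 ± 0.21, adjusted p 0.014, up to 0.112 without the same libraries). Cytosolic ribosome genes had 6 of 26 lower, led by Rpl11 (log2 change -0.92 ± 0.19, adjusted p 0.00735, up to 0.0679 without the same libraries), and 0 without the cold female or the warm female and 2 without a male library. That count was 3 with median-ratio scaling and 14 with quantile scaling. Interferon genes had 5 of 20 lower, 1 without the warm female, 2 without the cold female and 9 without the warm male. Isg15, an interferon-induced modifier protein, was low in all 4 libraries at 2.53 and 4.05 (warm) and 0.717 and 0.937 (cold) FPKM (log2 change -1.08 ± 0.19), and its call held without the warm female library, which stood apart in the sum of such genes.

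Fewer genes were called in the bats' subcutaneous fat under the same temperatures, and the difference in change was tested as an interaction. In sWAT 112 genes (1.02%) were higher and 7 (0.0635%) lower, with 0 of 30 brown fat genes, 0 of 23 complex I genes and 0 of 21 citric acid cycle genes called. The cold change was more positive in aWAT than in sWAT for 250 genes (2.27%) and more negative for 169 (1.53%), with a median difference over genes of -0.19. Of these, 250 and 97 were members, so the rest of the negative side did not reach the member rule in aWAT. Without 1 library the total of 419 ranged from 112, without the cold female aWAT library, to 767, without the cold male aWAT library. Deviations of same-sex aWAT and sWAT libraries from their group means correlated across genes at 0.55 in the warm and 0.35 in the cold, and with libraries of 1 sex and temperature as a random block 591 genes were more positive and 760 more negative. The labels do not say that these depots share animals. Ucp1 was at 0.410 and 0.570 FPKM in warm sWAT and 0.826 and 1.20 in cold sWAT, and its change differed between depots by 9.96 ± 0.51 on the log2 scale (limma adjusted p 4.07e-05). Hadha was at 61.4 and 72.8 (warm) and 66.0 and 63.9 (cold) FPKM in sWAT, a difference of 3.91 ± 0.38, and Rap1gap at 1.03 and 0.638 (warm) and 1.25 and 1.29 (cold), a difference of 4.38 ± 0.49. These 3 differences were called without each of the 8 libraries in turn. In lists, 9 of 30 brown fat genes, 15 of 23 complex I genes, 10 of 21 citric acid cycle genes and 13 of 24 fatty acid oxidation genes had a more positive change in aWAT. Without the warm female or the cold female aWAT library, or any 1 of the 4 sWAT libraries, those counts were 4 to 6, 1 to 4, 2 to 7 and 7 to 9. Skeletal muscle genes differed the other way, 15 of 18 being lower in the interaction with aWAT while 15 of 18 were higher in cold sWAT with a median log2 change of 4.33. The part of muscle tissue in the sWAT libraries in this comparison was not tested. Apol7a fell in sWAT as well, at 33.9 and 53.1 (warm) and 2.89 and 2.94 (cold) FPKM (log2 change -3.54 ± 0.34, adjusted p 0.000391).

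Bat brown fat already had high Ucp1 in the warm. It was at 2886 and 2669.7 FPKM in warm iBAT and 10405 and 7239 in cold iBAT, so cold aWAT, at 7184 and 2939, lay in the range from warm to cold brown fat. Its change in aWAT exceeded that in iBAT by 8.57 ± 0.51 on the log2 scale (limma adjusted p 0.000152), in every fit with 1 of the 8 libraries left out. Of all genes, 27 (0.245%) had a more positive change in aWAT and 0 (0.00%) a more negative one, while 1109 had an unadjusted p under 0.05. Other settings called 10 to 169 in all, and leaving out 1 library left 1 (without the warm male iBAT library) to 69 (without the cold male aWAT library). Same-sex deviations of aWAT and iBAT correlated at 0.31 in the warm and 0.41 in the cold, and the random block gave 137 more positive and 32 more negative genes. In iBAT itself 118 genes (1.07%) were higher and 96 (0.871%) lower, with 0 of 30 brown fat genes higher and 1 lower. Besides Ucp1 the 27 included Pmp2, at 152 and 159.8 (warm) and 204 and 197 (cold) FPKM in iBAT (difference 5.04 ± 0.56, adjusted p 0.0107, up to 0.0531 without the cold female or the warm male iBAT library). Fatty acid oxidation gave 6 of the 27, but 2 without the warm female or the cold female aWAT library, 0 to 2 without any 1 of the 4 iBAT libraries and 9 without the cold male aWAT library. Eef1a2, at 25.8 and 43.6 (warm) and 77.6 and 109 (cold) FPKM in iBAT, was among the 27 with all libraries only (difference 3.66 ± 0.54, adjusted p 0.0313, up to 0.139 without 1 of the 8).

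**Figure D4:**
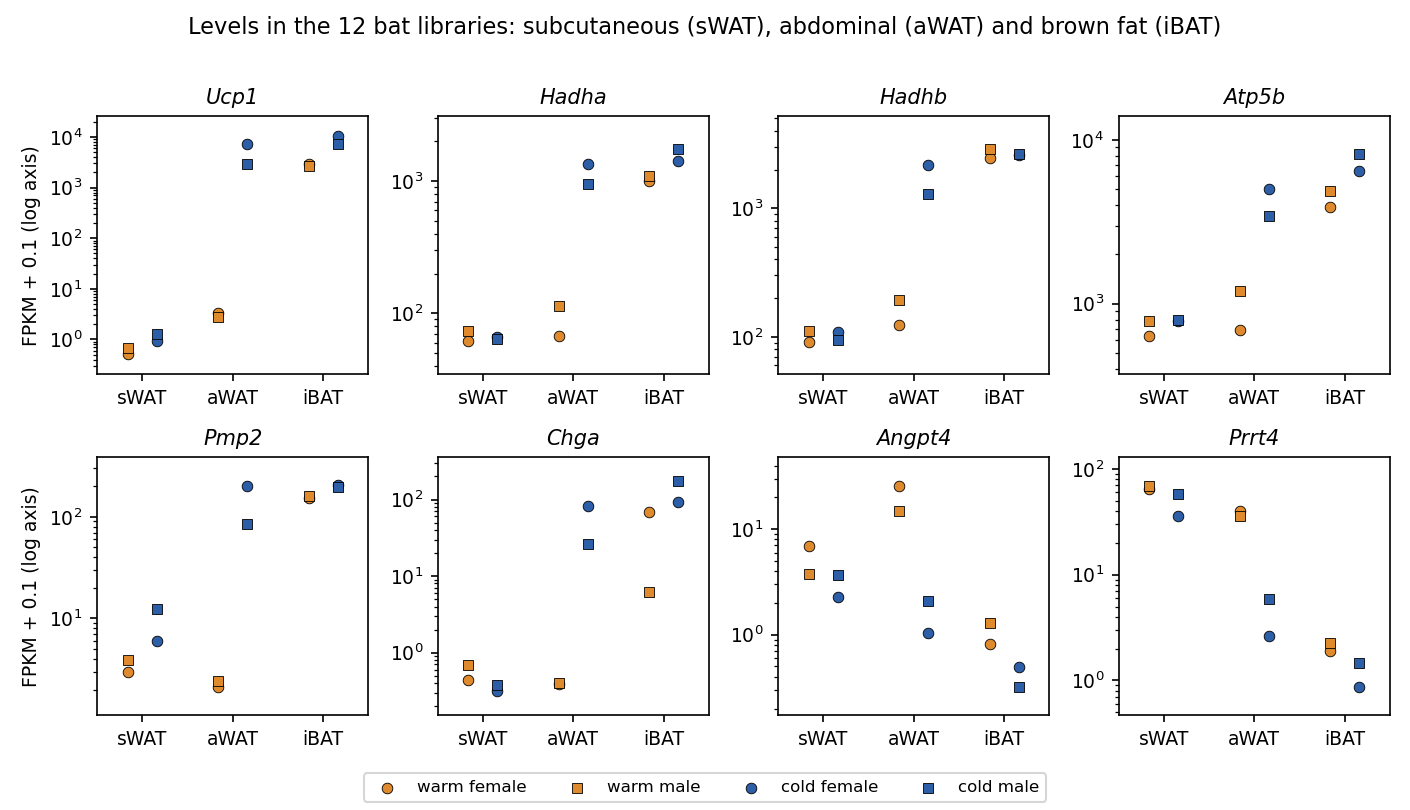
FPKM + 0.1 on log axes of 8 named genes in the 12 bat libraries of sWAT, aWAT and iBAT, 1 point per library, with colour for temperature and shape for sex. Ucp1, Hadha, Hadhb, Atp5b and Pmp2 lie near the iBAT levels in cold aWAT and near the sWAT levels in warm aWAT, and Angpt4 and Prrt4 are low in cold aWAT and in iBAT.

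Subcutaneous fat of mice is the usual example of browning, and the bat depot differed from it in genes of lipid synthesis. Mouse sWAT went from 1.19 and 1.53 to 1229 and 2977 FPKM for Ucp1, and the change in bat aWAT differed from it by 0.27 ± 0.77 on the log2 scale (limma adjusted p 0.673), which does not show them equal. Over 9400 genes tested in both species, the change was more positive in bat aWAT for 746 (7.94%) and more negative for 291 (3.10%), with a median difference over genes of 0.26. That split depended on the scale: 348 were more positive and 413 more negative with median-ratio scaling, and 537 and 537 with quantile scaling. The total of 1037 was 313 without the warm female mouse library, 395 without the cold male mouse library, 453 without the warm female bat library and 2001 without the cold female mouse library. Species, depot and the 2 sets of animals cannot be told apart here. In mouse sWAT itself 715 genes (7.61%) were higher and 2630 (28.0%) lower. Complex I and the citric acid cycle gave no called difference with all libraries (up to 2 genes without 1 library), with 23 of 23 and 19 of 21 genes higher in mouse sWAT. Some other lists were called only or mostly in 1 direction. Cell cycle genes had 6 of 18 with a more positive change in bat aWAT, while 13 of 18 were lower in mouse sWAT. Proteasome genes had 4 of 28 more positive, antioxidant genes 3 of 25, and lysosome genes 5 of 29 with 1 more negative. These stand against 7.94% more positive over all genes tested. Brown fat and thermogenic genes had 7 of 29 with a more negative change in bat aWAT (median difference -0.87, 6 to 10 genes without 1 library), and fatty acid oxidation 5 of 24 (3 without the warm female or the cold male mouse library or the cold male aWAT library). Glycolysis had 5 of 15 (1 without the warm female mouse library, 2 without the cold male mouse or the warm male aWAT library and 3 without any other aWAT library). Glycogen genes had 4 of 9 more negative (2 without the warm female mouse library) and 1 more positive. In fatty acid synthesis 9 of 18 genes had a more negative change in bat aWAT, with a median difference of -1.88 (3 without the warm female mouse library and 7 to 9 without any other), and 14 of 18 were higher in mouse sWAT. Cholesterol synthesis had 7 of 18 genes with a more negative change (2 without the warm female mouse library, 3 without the cold male or the warm male aWAT library and 4 without the cold female aWAT library). Triglyceride synthesis had 3 of 12 (7 without the cold female mouse library and 5 without the warm male one).

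Named genes differed between the species in both directions. Agpat2, an acyltransferase of triglyceride synthesis, went from 26.1 and 57.5 to 662 and 750.1 FPKM in mouse sWAT and from 700.1 and 1096 to 639 and 698 in bat aWAT (difference -4.80 ± 0.48, limma adjusted p 0.000394). Cox7a1 went from 5.80 and 6.54 to 769.7 and 1516 FPKM in the mouse (difference -5.84 ± 0.40). Cidea was at 10.9 and 15.0 (warm) and 565 and 636 (cold) FPKM in the mouse (difference -3.70 ± 0.59). Changes and not levels were compared between the species, since how bat fragments were given mouse identifiers is not known here. S100b, which fell in the bat, was at 2.20 and 3.78 (warm) and 12.3 and 45.5 (cold) FPKM in the mouse (difference -6.50 ± 0.79, adjusted p 0.000854). Tcf19 and Serhl had a more positive change in the bat, with mouse levels of 8.58 and 6.57 (warm) and 2.35 and 1.49 (cold) FPKM for Tcf19 and 20.3 and 18.0 (warm) and 22.8 and 19.2 (cold) for Serhl (differences 5.06 ± 0.45 and 3.91 ± 0.47). All 6 differences were called without each of the 8 libraries in turn.

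**Figure D5:**
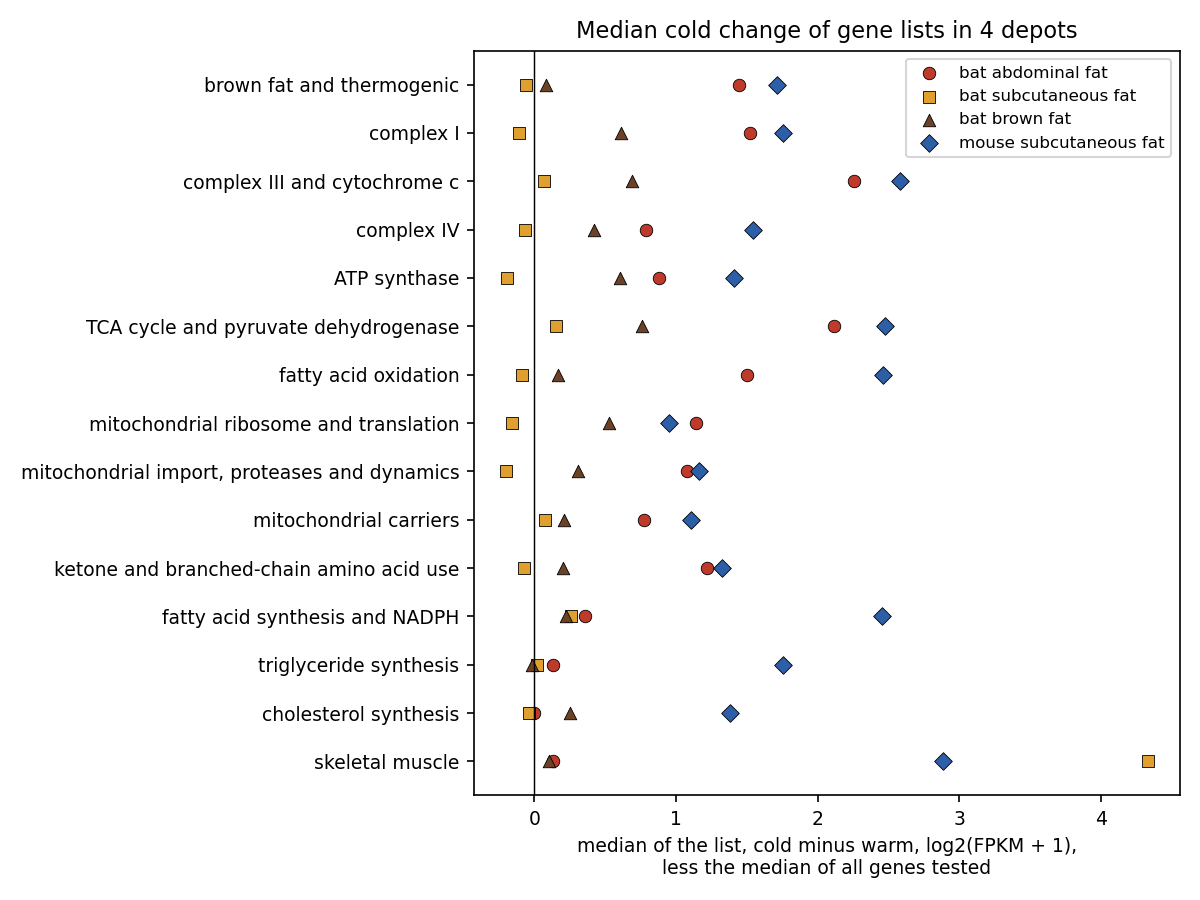
Median log2 change of FPKM + 1 (cold minus warm, relative to the median gene of each comparison) of selected gene lists in bat aWAT, bat sWAT, bat iBAT and mouse sWAT. Each marker is 1 list in 1 depot: complex I lies at 1.52 in bat aWAT, -0.11 in bat sWAT, 0.61 in bat iBAT and 1.75 in mouse sWAT, and fatty acid synthesis at 0.36 in bat aWAT and 2.46 in mouse sWAT.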

How the data were processed

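Total RNA of the depots was made into libraries with Illumina protocols, per the labels, and CASAVA 1.8 was used, per the submitters' processing notes. How bat fragments were aligned, counted and given mouse gene identifiers, and the build, is not given in the sources used here. Values are FPKM per gene as the authors deposited them, in 1 table of 14871 mouse gene identifiers for all 20 libraries. Symbols were found for 14723 of them in the mouse annotation, and 148 had none. FPKM holds no depth, so only relative depth was read from the ratios of low values between libraries (tolerance 0.5%).

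Changes were tested with limma 3.58.1 in R 4.3.3 on log2(FPKM + 1), a scale that understates changes of low genes, over genes that reached 1 FPKM in 2 or more of the 12 bat libraries. The fit held the 6 bat groups of 2 libraries (6 residual degrees of freedom), with Benjamini-Hochberg adjustment over all genes tested and a threshold of 0.05. Calls rest on changes as deposited, and printed changes are relative to the median gene. Differences between depots were interaction contrasts of that fit, and of a 20-library fit over both species for mouse sWAT. With 2 libraries against 2, a permutation test cannot reach 0.05. The procedure was tested on data simulated with independent noise in each library. The simulation left out the correlations between same-sex libraries given below, so it cannot show their effect on the contrasts between depots.

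Sex is the only number shared between groups, and it did not pair the temperatures of aWAT: same-sex deviations correlated at -0.17. Between depots at 1 temperature they correlated at 0.26 to 0.55 in bats. Alternatives were other pseudocounts, filters, scalings and eBayes settings, the 4 aWAT libraries alone, sex as a block, and leaving out each library. A random block for libraries of 1 species, sex and temperature was added after the data were seen. Named genes included the 15 largest called changes in each direction, with at least 5 FPKM in 1 group and both sexes moving in that direction. The others were a set of core genes, up to 5 called genes per list, and up to 8 per depot contrast and direction. A few marker genes were added for checks. Lack of overlap between groups is given for genes chosen mostly by their calls, without its share over all genes. It adds no support to those calls. The members and lists were chosen with earlier results of these data known. Every list count in aWAT stands beside 8.33% higher and 6.49% lower over all genes tested. Fits with 1 library left out have other shares, with fewer genes called in total except without the cold male. How far list counts in those fits follow the totals was not tested. Elovl3, Cox8b and Scd1 were not analysed here. Retn and Fabp4 were not analysed because no row was found under their symbols. Some other genes are not reported here.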

Additional observations from a re-analysis of the deposited data

Results flagged for a closer look

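The cold change of 419 genes differed between bat aWAT and bat sWAT by the interaction test. Differences in log2 change, aWAT minus sWAT and relative to the median gene, were 9.96 for Ucp1, 5.63 for Chga, 4.81 for Serhl, 4.42 for Pmp2, 4.38 for Rap1gap, 4.02 for Abhd8, 4.00 for Shd and 3.91 for Hadha. Those in the other direction were -5.01 for Alox12e, a skin lipoxygenase, -3.27 for Myl1, a muscle myosin light chain, -2.54 for Lgals3bp, -2.47 for Sbspon, -2.31 for Mbp, which encodes myelin basic protein, -2.25 for Prrt4, -2.24 for Angpt4 and -2.22 for Fhl1, a muscle LIM protein. Alox12e was at 79.8 and 49.0 FPKM in warm and 12.8 and 16.4 in cold aWAT, and at 11.2 and 2.38 (warm) and 54.9 and 58.6 (cold) in sWAT. Of these 16 differences 9 were called without each of the 8 libraries in turn, and those of Chga and Lgals3bp were lost most often, with limma adjusted p up to 0.173 and 0.173.

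Between aWAT and iBAT of the bat 27 genes differed, all with a more positive change in aWAT. The differences were 8.57 for Ucp1, 5.04 for Pmp2, 4.01 for Serhl, 3.66 for Eef1a2, 3.48 for Hadhb and 3.43 for Cox20, a cytochrome oxidase assembly factor. Of these 6 only Ucp1 was called without each of the 8 libraries in turn, and limma adjusted p of the other 5 reached at most 0.184, for Cox20.

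Against mouse sWAT 1037 genes differed. The largest positive differences were 7.25 for the immunoglobulin gene Ighg1, 5.06 for Tcf19, 4.68 for Abhd8, 4.66 for Fabp7, 4.25 for Cyfip2, 4.12 for Hmga1b, 4.00 for Pygb and 3.91 for Serhl. Those in the other direction were -6.50 for S100b, -5.84 for Cox7a1, -4.80 for Agpat2, -3.92 for Ppp1r3b, a glycogen-targeting phosphatase subunit, -3.91 for Gpd1, -3.71 for Thrsp, a lipogenic protein, -3.71 for Ntrk3 and -3.70 for Cidea. Ighg1 was at 1.71 and 1.66 FPKM in warm and 4.78 and 16.5 in cold bat aWAT and at 181 and 98.0 (warm) and 5.76 and 0.117 (cold) in mouse sWAT. Its name and that of Hmga1b are uncertain among near copies. In mouse sWAT 5 of 5 B lymphocyte and 13 of 18 cell cycle genes were lower in the cold, against 28.0% of all genes tested. The part of such decreases in the mouse in the positive differences was not tested. Gpd1 was at 88.0 and 287 (warm) and 1757 and 2224 (cold) FPKM in mouse sWAT. Of these 16 differences 13 were called without each of the 8 libraries in turn, and those of Fabp7, Pygb and Thrsp were not.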

How the results depend on the processing

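The 918 higher and 716 lower genes of aWAT became 212 and 43 when only the 4 aWAT libraries were fitted, with fewer residual degrees of freedom, and 1204 were lower without the 10 highest genes. Leaving out 1 library gave 333 to 848 higher and 90 to 862 lower genes, fewest without the cold female and most without the cold male. With sex as a replicate block 1016 were higher and 881 lower, with 7 named calls lost and 0 reversed. The total of 419 genes that differed from bat sWAT was 229 with a pseudocount of 0.1, 1351 with the random block and 112 to 767 without each library in turn. The 27 that differed from bat iBAT were 10 with a pseudocount of 0.1, 15 with median-ratio scaling, 41 with sex as a replicate block, 169 with the random block and 1 to 69 without each library in turn. The 1037 that differed from mouse sWAT were 313 to 2001 without each library in turn, and within 1.5 times under the other alternatives, but the split of 746 more positive and 291 more negative became 348 and 413 with median-ratio scaling and 537 and 537 with quantile scaling. The cause of these shifts was not tested. Of 212 named called genes, 88 were called in all 4 fits with 1 aWAT library left out and 21 in none, and 0 reversed under any alternative run. Named calls lost numbered 134 with only the 4 aWAT libraries, 117 without the cold female and 105 without the warm female. Depth is known only relative to 1 library, so the counting error of low FPKM values could not be computed here.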

Other observations

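The list of ion channels and pumps had 3 of 16 genes higher in cold aWAT (18.8%) and 1 lower (6.25%), against 8.33% and 6.49% of all genes tested. Atp1b1, the beta-1 subunit of the sodium pump, was at 2.98 and 3.75 (warm) and 23.3 and 13.6 (cold) FPKM (log2 change 2.25 ± 0.30, limma adjusted p 0.00229), and it was called without each library in turn. The lower gene was the water channel Aqp1 (log2 change -1.06 ± 0.33, adjusted p 0.041, up to 0.24 without any 1 library).

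Heat shock and cold RNA-binding protein genes had 1 of 19 higher (5.26%) and 2 lower (10.5%), against 8.33% and 6.49% of all genes tested, and these were the small heat shock genes Hspb8, Hspb1 and Hspb2. Hspb8, a muscle and heart chaperone, was at 3.80 and 12.6 (warm) and 60.8 and 38.2 (cold) FPKM (log2 change 2.74 ± 0.48, limma adjusted p 0.0078, up to 0.0774 without the cold female or the warm female), while Hspb1 fell from 4.51 and 5.17 to 0.945 and 1.64 FPKM (log2 change -1.23 ± 0.23, adjusted p 0.00485) in every fit with 1 library left out. The cold-inducible RNA-binding protein gene Cirbp was at 139 and 86.8 FPKM in warm and 49.4 and 87.0 in cold aWAT and was not called (adjusted p 0.182). Positional genes of the Hox and related families had 0 of 20 higher and 4 lower (20.0%), against 8.33% and 6.49% of all genes tested. Fewer were lower without any 1 library. Hoxc6 was at 10.4 and 14.4 (warm) and 5.35 and 5.60 (cold) FPKM (log2 change -0.90 ± 0.22, adjusted p 0.0153, up to 0.0961 without the cold female or the warm male).

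Lysosome and autophagy genes had 6 of 29 higher (20.7%) and 1 lower (3.45%), against 8.33% and 6.49% of all genes tested. Fewer were higher without any 1 library. The cathepsin Ctsd was at 237 and 246 (warm) and 486 and 428 (cold) FPKM (log2 change 1.05 ± 0.18, limma adjusted p 0.00972, up to 0.0764 without the warm female or the cold female). The summed FPKM of red cell genes was 1591 and 858 in the warm and 261 and 2018 in the cold, with the lowest value in the cold female.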
